A study of Mus musculus with 17 samples.

Results

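Cortical nuclei in which transcripts of Galnt14, Col6a1 and 4 further marker genes were captured together are described here. The nuclei were chosen by their measured transcripts. A member nucleus had at least 1 UMI (unique molecular identifier, one captured RNA molecule) of at least 3 of the 6 genes Galnt14, Col6a1, Hs3st2, Chrm2, Sema3e and Cdh9, among them Galnt14 or Col6a1. It also had no UMI of Gad1, Gad2, Deptor, Rprm, Syt6 or Cpne7, and at most 1 UMI of Rorb. Of 31486 nuclei kept from 40000 deposited barcodes, 693 were members. The mice labelled control 1 to 4 gave 70, 98, 138 and 48 members, and those labelled CUS 1 to 4 gave 70, 85, 68 and 116.

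The 6 markers have different roles in a neuron. Galnt14 encodes a polypeptide GalNAc-transferase, an enzyme that starts O-linked glycosylation, and Hs3st2 encodes a heparan sulphate sulphotransferase. Col6a1 encodes a collagen VI chain, Cdh9 a classical cadherin, and Sema3e a secreted semaphorin that guides axons. Chrm2 encodes an inhibitory muscarinic acetylcholine receptor. Excitatory neurons of the cortex release glutamate, carry the vesicular transporter Slc17a7, and are sorted into types by cortical layer and by the target of their axons.

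The study asked how chronic unpredictable stress (CUS), a schedule of varied daily stressors, changes transcription in the mouse cortex. Neocortical nuclei of male C57BL/6 mice (C57Bl/6J in the methods) at postnatal day 80 were profiled by sNucDrop-seq, a droplet method for single nuclei, in 4 control mice and 4 mice after 12 days of CUS. Their tissue was taken 24 hours after the last stressor, and control mice lived in a separate room and were handled daily. Nuclear RNA of the medial prefrontal cortex (mPFC, labelled cortex) was sequenced in bulk from 4 further controls and 5 further CUS mice of postnatal day 90. The methods time the bulk tissue from the last behavioural test, whereas the labels time it from the last stressor. The labels of these groups name no transgene and no drug.

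Kept nuclei numbered 2267 to 4959 per mouse with 6074138 to 15459579 UMIs, and bulk libraries held 26188825 to 30525015 counts. The median UMIs were 3293 per member, 2836 per other excitatory nucleus and 2094 over all kept nuclei. Other excitatory nuclei are the 7839 remaining nuclei with Slc17a7 and no Gad1 or Gad2 UMI. Member depth was 3358 ± 642 median UMIs in control and 3348 ± 474 in CUS mice (SD, n = 4 each). A doublet score over 0.2 was found for 57 members (8.23%), 7.36% of other excitatory nuclei and 8.44% of all kept nuclei. Of 27 kept barcodes seen in more than one library, 1 included a member. Clusters led by Tac1 with Drd1 and by Penk with Drd2, genes of striatal neurons, held 1454 and 924 kept nuclei in these libraries labelled neocortex. They gave 6 and 4 members.

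Galnt14 was captured in 71.3% of members and 10.5% of other excitatory nuclei, and Cdh9 in 68.4% and 20.2%. Col6a1 was captured in 62.3% and 9.87%, Hs3st2 in 48.8% and 17.3%, Sema3e in 47.6% and 11.7%, and Chrm2 in 45.2% and 12.6%. These values chose the members and carry no test. Most members sat close to the limit, since 452 had exactly 3 of the markers, 187 had 4, 47 had 5 and 7 had all 6. The commonest combination, Galnt14 with Chrm2 and Cdh9, was found in 57 members (8.23%).

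Just outside the limit, 806 nuclei that met the other conditions had 2 of the markers. Their median was 2583 UMIs, against 3059 for members with 3 markers and 3610 for members with 4. Slc17a7 was captured in 44.8% of the nuclei with 2 markers, 53.1% of those with 3 and 65.2% of those with 4. From 2 to 5 markers, number and depth thus moved together, with a median of 4254 UMIs at 5, while the 7 members with all 6 had 3444. With nuclei thinned to 1000 UMIs and shallower ones left out, the mean member share was 0.538% in control and 0.509% in CUS mice. It was 2.24 and 2.11% with all UMIs. The part of depth in membership was not tested.

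The 693 nuclei did not form a single cluster. Clustering of all kept nuclei gave 36 clusters, and members lay in 24 of them. Cluster 5, led by Slc26a4, Galnt14, Sulf1, Col6a1 and Rxfp1, held 360 members (51.9%, 95% Wilson interval 48.2 to 55.6, counting error only). The other 333 members (48.1%) lay elsewhere. Cluster 24, led by Nr4a2, Oprk1 and Gnb4, held 61, cluster 14 with Parm1 and Fezf2 among its leading genes held 54, and cluster 6, led by Ndst4 and Abi3bp, held 47. Cluster 15, led by Ctgf, and cluster 2, led by Rprm and Foxp2, held 36 each. Clusters led by Mag and by Siglech, genes of oligodendrocytes and microglia, held 11 and 7. The label of an excitatory type of its own was thus not borne out for all members, and they are called member nuclei below.

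The clustering used the marker genes too, and Galnt14 and Col6a1 lead cluster 5, so its share of nuclei with the markers is a description. At least 3 markers were captured in 33.0% of its nuclei, and in 6.83% once each nucleus was thinned to 1000 UMIs, with shallower nuclei left out. The next highest thinned share was 2.54% in cluster 27, led by Chst9 and Pbx3. The same shares were 24.2% and 1.18% in cluster 24, 11.3% and 1.36% in cluster 15, and 11.6% and 0.355% in cluster 14. In the oligodendrocyte-gene cluster led by Mag, they were 8.68% and 0.755%, at a median of 2780 UMIs against 2348 in cluster 5. In cluster 16, also of oligodendrocyte genes and led by Mog, they were 0.786% and 0% at a median of 1178 UMIs. Of the 2 clusters with astrocyte genes, the shares were 7.21% and 0.187% in cluster 20, led by Mertk and Grin2c, at a median of 2714 UMIs. They were 0% and 0% in the one led by Slc1a3, at a median of 1228 UMIs. Members were 17.5% of cluster 5 and 13.8% of cluster 24.

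**Figure D1:**
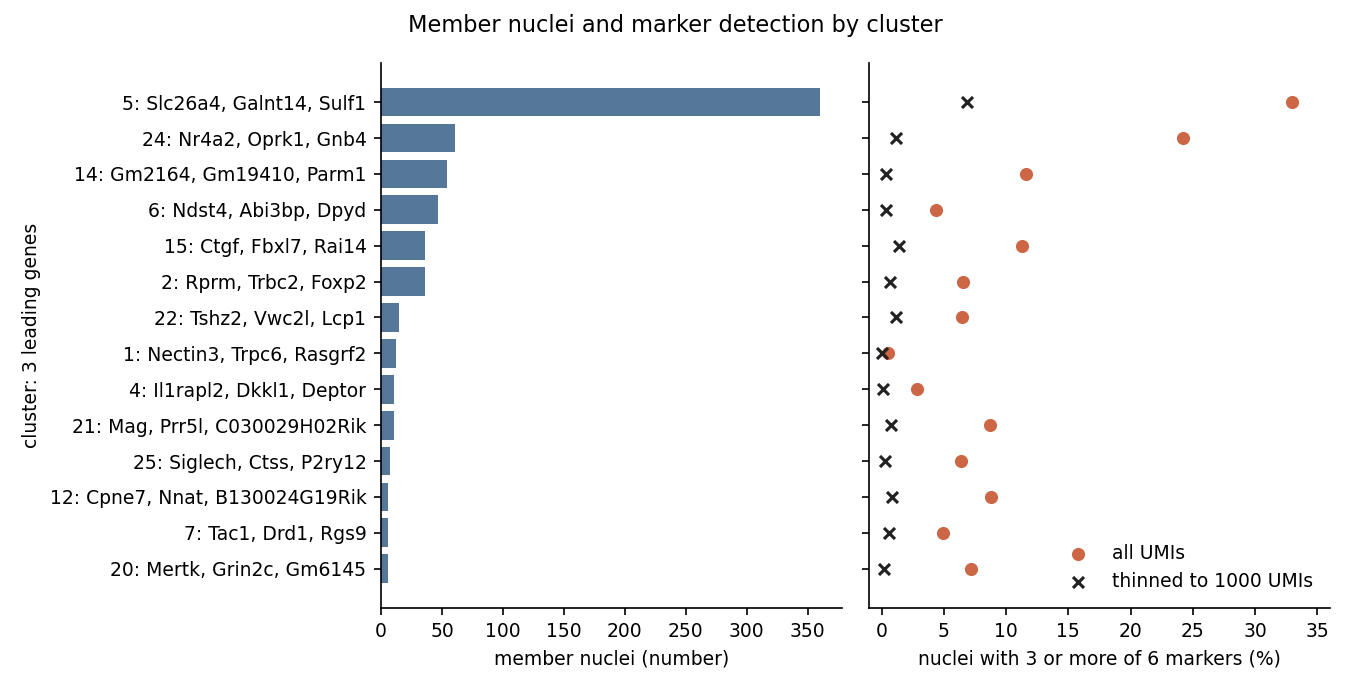
Left, number of member nuclei in each of the 14 clusters with most members, named by cluster number and 3 leading genes. Right, percent of each cluster's nuclei with 3 or more of the 6 markers, with all UMIs (orange circles) and after thinning to 1000 UMIs (black crosses). Cluster 5 held 360 members and kept 6.83% after thinning.

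Among 7992 thinned nuclei with Slc17a7, the markers were paired unevenly. Galnt14 was captured in 9.22% of nuclei with Cdh9 and 4.83% of those without, and Sema3e in 10.2% of nuclei with Galnt14 and 5.34% of those without. Chrm2 and Sema3e were the one pair below its background among the 15 pairs compared, with Sema3e in 4.73% of nuclei with Chrm2 and 5.65% without. These shares are descriptions over nuclei that share libraries.

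Outside the rule, 18 of the 6021 genes found in at least 10% of members were over 1.5 times higher in members than in other excitatory nuclei in every mouse. The 15 with the highest ratio of mean CPM (UMI counts scaled to a common library total) were Oprk1, Blnk, Sulf1, Rgs12, Cwh43, Pdia5, Sema5b, Ntng2, Zfp804a, Gm34583, Antxr1, Tmem163, Olfm3, Igsf21 and Zfp804b. The members were chosen by transcripts of the same nuclei, so these ratios are descriptions with no test.

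Oprk1, which encodes the kappa opioid receptor, had the highest ratio, 5.39. Its level in members was 124, 105, 95.7 and 127 CPM in control 1 to 4 and 180, 102, 57.2 and 125 CPM in CUS 1 to 4, against 12.6 to 32.9 CPM in other excitatory nuclei. Every mouse had more Oprk1 in its members than any mouse had in its other excitatory nuclei. It was captured in 17.9% of members. Its mean was 86.1 CPM in members of cluster 5 and 141 CPM in members elsewhere.

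Blnk, known as an adaptor protein of B-cell signalling, had a ratio of 3.64 and 18.1 to 67.9 CPM in members. Sulf1, an extracellular enzyme that removes sulphate from heparan sulphate, had a ratio of 3.13 and 114 to 189 CPM. Sulf1 was at 242 CPM in members of cluster 5 and 90.7 CPM in the others, and Blnk at 75.5 and 20.8 CPM. These genes were thus higher in the cluster 5 members than in the remaining ones.

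A further group had the opposite distribution. Rgs12, a regulator of G-protein signalling, was at 45.8 CPM in members of cluster 5 and 154 CPM in the others. Tmem163, a zinc transporter, was at 11.0 and 102 CPM, and Olfm3, an olfactomedin-domain protein, at 192 and 517 CPM. Part of the genes that led the member list therefore came mostly from members outside cluster 5.

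The lowest genes by the mirrored rule numbered 23 of 5555. Thsd7a had a ratio of 0.17, with 26.1 ± 15.3 CPM in members and 153 ± 27.9 CPM in other excitatory nuclei (SD over 8 mice). Nectin3, a cell adhesion protein, had a ratio of 0.24 and Car4, a carbonic anhydrase, 0.25. Gm12371, Fam19a2, Myo16, Kcnh5 and Gpc6 followed with ratios of 0.24 to 0.32. Thsd7a reached 375 CPM in the layer 4 set and Nectin3 246 CPM in the layer 2/3 set, the nuclei chosen by markers of those layers. Slc17a7 itself was lower in members, 268 ± 53.5 against 451 ± 58.1 CPM, but every other excitatory nucleus had been chosen for a Slc17a7 UMI and only 57.4% of members had one.

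**Figure D2:**
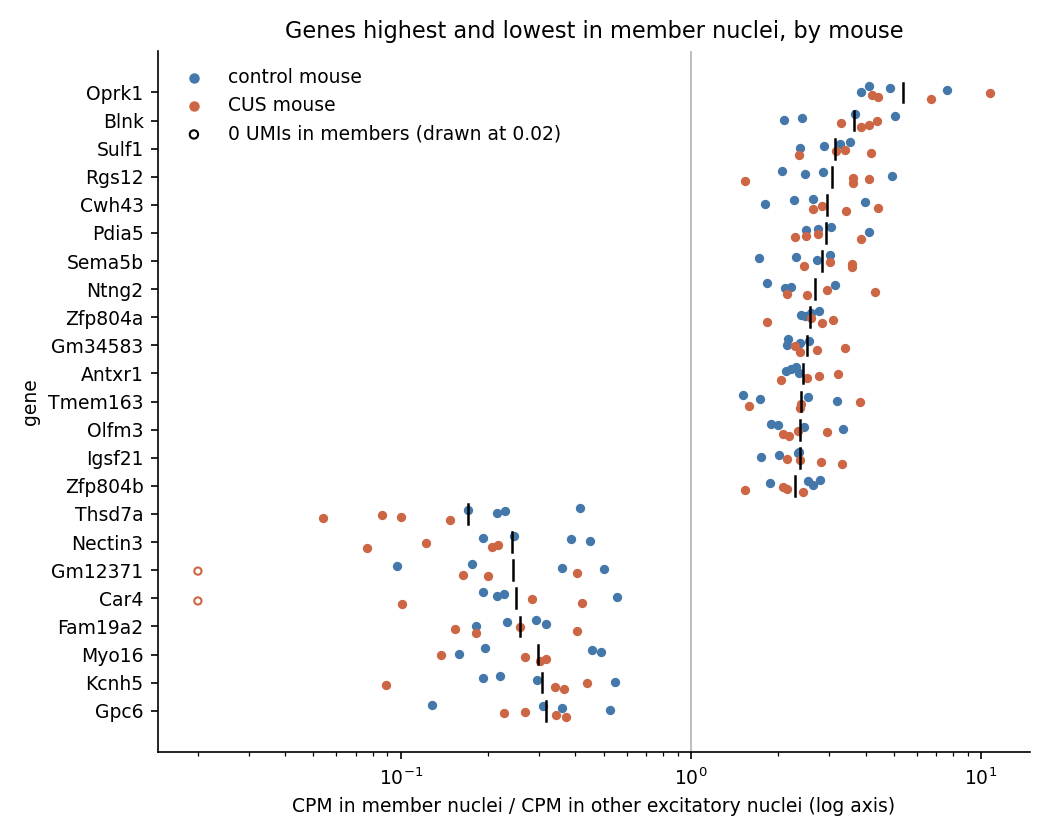
Ratio of CPM in member nuclei to CPM in other excitatory nuclei of the same mouse (log axis) for the 15 leading and 8 lowest genes. Each point is a mouse (blue control, orange CUS), the black bar is the ratio of means, and open points mark mice with 0 UMIs in members. Oprk1 has the highest ratio of means, 5.39, and Thsd7a the lowest, 0.17.

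Summed levels of fixed marker lists showed what else the members held. The 8 excitatory markers summed to 4191 to 5494 CPM in members and 4478 to 5326 CPM in other excitatory nuclei. Layer 2/3 markers were at 239 to 335 CPM against 499 to 644 CPM, and layer 6 markers at 203 to 629 CPM against 682 to 1202 CPM, so that the ranges did not meet. The rule itself barred the layer 6 genes Rprm and Syt6. Layer 5 markers had overlapping ranges, 486 to 696 and 533 to 639 CPM. Layer 4 markers were at 207 to 418 and 324 to 523 CPM, and near-projecting markers at 42.6 to 145 and 140 to 190 CPM.

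The 6 markers of claustrum and layer 6b neurons, among them Nr4a2, Gnb4, Ntng2 and Ctgf, stood higher in members. They summed to 232 to 586 CPM in members and 133 to 171 CPM in other excitatory nuclei. The mean was 203 CPM in members of cluster 5 and 607 CPM in members outside it. Genes induced by neuronal activity summed to 1776 to 2501 CPM in members and 1330 to 2073 CPM in other excitatory nuclei. Nr4a2 belongs to both lists.

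Markers of other cell classes were present in both sets of nuclei. Inhibitory markers summed to 139 to 440 CPM in members and 188 to 298 CPM in other excitatory nuclei, and oligodendrocyte markers to 207 to 796 and 262 to 588 CPM. Astrocyte markers were at 433 to 804 and 766 to 1074 CPM, microglia markers at 38.3 to 84.5 and 36.1 to 73.7 CPM, and endothelial markers at 4.77 to 16.3 and 8.09 to 27.3 CPM. Oligodendrocyte precursor markers were at 105 to 196 and 132 to 182 CPM, striatal markers at 659 to 900 and 621 to 947 CPM, and choroid plexus markers at 74.1 to 137 and 149 to 177 CPM. The endothelial marker Cldn5 was at 0 in members. The part of free RNA or doublets in these levels was not tested.

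The first comparison with stress was the share of kept nuclei that were members. It was 2.03, 2.03, 2.78 and 2.12% in control 1 to 4, and 1.73, 2.46, 1.89 and 2.38% in CUS 1 to 4. The groups overlapped, and control 3 was the highest of all mice. The means were 2.24% ± 0.364 in control and 2.11% ± 0.363 in CUS mice (SD, n = 4 each), a difference of -0.126 percentage points with a two-sided exact permutation p of 0.686, where 4 against 4 mice cannot go below 0.0286. The difference was 0.0546 points without control 3, 0.0029 points without CUS 1, and 0.279 points when only nuclei with at least 1000 genes were kept. Within the sets of mice with lower and higher mitochondrial share, defined below, it was 0.0206 and -0.273 points. No direction was thus established.

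None of the 7 measures of the members compared between groups passed the exact permutation test (lowest adjusted p 0.80, two-sided, n = 4 each). With a floor of 0.0286 before adjustment, no single measure could have passed 0.05 after adjustment over 7. The adjusted values thus could not decide on a single measure, and the lowest unadjusted exact permutation p was 0.2. Cluster 5 took 58.6, 55.1, 45.7 and 45.8% of members in control 1 to 4 and 48.6, 54.1, 50 and 56.9% in CUS 1 to 4 (exact permutation p = 0.743). Slc17a7 was captured in 51.7% ± 5.18 of control and 61.7% ± 13.3 of CUS members (exact permutation p = 0.229). Cluster 5 as a whole was 6.05% ± 1.26 of kept nuclei in control and 6.92% ± 0.704 in CUS mice (exact permutation p = 0.2). Cdh9, a gene of the rule, was captured in 68.6 to 76.5% of control members and 55.7 to 70.7% of CUS members.

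Summed UMIs of the members differed between the groups for 7 of 6603 genes tested, 0.106% of them, by edgeR's quasi-likelihood test at an adjusted p (Benjamini-Hochberg) under 0.2. Mical2, Sfxn3 and Gsg1l were higher in CUS mice (0.0454% of the genes) and Htr2c, Cdh8, Ankrd28 and Epha6 were lower (0.0606%). For each of the 7 genes the 4 CUS mice lay wholly on one side of the 4 controls, which was also so for 3.92% of all genes tested. Unadjusted p was under 0.05 for 448 genes (6.78%).

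The count leaned on single mice and on how the nuclei were chosen. It was 0 without CUS 1, 1 without control 2, 2 without CUS 4, 3 without control 3 or control 4, 14 without CUS 3 and 19 without CUS 2. Removing nuclei with a doublet score over 0.2, a filter the methods applied with their own scores, left Htr2c alone past the threshold, at -1.44. The other 6 then stood at log2 differences of 1.42 for Sfxn3, 1.31 for Gsg1l, 0.69 for Mical2, -0.81 for Cdh8, -0.75 for Ankrd28 and -0.55 for Epha6. Asking for 4 markers left none of the 7 past the threshold, with Cdh8 at a log2 difference of -0.01. The likelihood ratio test of edgeR called 18 genes, the 7 among them, and DESeq2 called 13, of which Epha6 was shared. DESeq2 gave no adjusted p for the other 6, which its filter on low means left out.

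The 8 mice fell into 2 sets by the mean mitochondrial share of UMIs in kept nuclei. It was 0.376 to 0.515% in control 1, control 4, CUS 1 and CUS 2, and 0.649 to 0.786% in control 2, control 3, CUS 3 and CUS 4. Over genes, the deviations of a control and a CUS mouse from their group means correlated at 0.019 to 0.114 in the 8 pairs of the same set and at -0.150 to 0.0067 in the 8 pairs across sets. The methods name 2 library batches, each of control and CUS mice, report a strong batch effect and fit batch as a term in the nuclei tests. No label ties a mouse to a batch, so the sets are not called batches here and the main test has no such term. With the set as a term, a choice made after the data were seen, 21 genes passed edgeR's quasi-likelihood test, the 7 among them. Htr2c then had an edgeR adjusted p of 0.00884 and the other 6 had 0.0592 to 0.0851. In the lower set the log2 differences were -1.42 for Htr2c, -0.75 for Cdh8, -0.73 for Epha6, -0.93 for Ankrd28, 0.82 for Mical2, 1.89 for Sfxn3 and 1.53 for Gsg1l. In the higher set they were -1.44, -0.91, -0.62, -0.80, 0.77, 1.30 and 1.22. The same sign in both sets was given beforehand, since the groups did not overlap for any of the 7. With 2 against 2 mice, none of the 7 passed in the lower set (edgeR adjusted p 0.737 to 0.839). In the higher set Ankrd28 and Sfxn3 did not pass (edgeR adjusted p = 0.240 and 0.297).

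Htr2c, on chromosome X (146962513 to 147197277, mm10), encodes the serotonin 2C receptor. Its level in members, as TMM-scaled CPM, was 127, 123, 120 and 95.6 in control 1 to 4 and 20.8, 64.7, 61.7 and 34.2 in CUS 1 to 4. The lowest control mouse stood above the highest CUS mouse. The fitted log2 difference was -1.44 ± 0.27 (SE, edgeR adjusted p = 0.0234), a ratio of means of 0.39. The gene rested on 196 UMIs and was captured in 11.8% of members.

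Cdh8, on chromosome 8 (99024471 to 99416471, mm10), encodes a classical cadherin, a calcium-dependent adhesion protein of synapses. It was at 255, 382, 231 and 273 CPM in control 1 to 4 and 137, 174, 131 and 184 CPM in CUS 1 to 4, a log2 difference of -0.86 ± 0.19 (SE, edgeR adjusted p = 0.126). Epha6, on chromosome 16 (59653483 to 60605531, mm10), encodes an ephrin receptor of axon guidance. It was at 605, 730, 605 and 594 CPM in controls and 403, 309, 482 and 398 CPM in CUS mice, a log2 difference of -0.67 ± 0.16 (SE, edgeR adjusted p = 0.151). For both surface proteins the lowest control lay above the highest CUS mouse.

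Ankrd28, on chromosome 14 (31698768 to 31830651, mm10), encodes an ankyrin-repeat subunit of protein phosphatase 6. It fell from 188 ± 20.2 CPM in control to 104 ± 15.1 CPM in CUS mice (SD, n = 4 each). The single mice were at 212, 195, 166 and 178 CPM in control and 108, 94.6, 123 and 89.7 CPM in CUS. The log2 difference was -0.85 ± 0.20 (SE, edgeR adjusted p = 0.151).

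Mical2, on chromosome 7 (112225856 to 112355194, mm10), encodes a monooxygenase that oxidises actin. It was at 143, 168, 143 and 143 CPM in control 1 to 4 and 299, 199, 239 and 284 CPM in CUS 1 to 4. The control mice were close together and all CUS mice lay above them. The log2 difference was 0.78 ± 0.18 (SE, edgeR adjusted p = 0.151), a ratio of means of 1.71.

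Sfxn3, on chromosome 19 (45047576 to 45056383, mm10), encodes a serine transporter of the mitochondrial inner membrane. It was at 26.5, 26.4, 21.0 and 6.83 CPM in controls and 95.6, 34.9, 50.1 and 64.1 CPM in CUS mice, a log2 difference of 1.49 ± 0.36 (SE, edgeR adjusted p = 0.152). Gsg1l, on chromosome 7 (125878420 to 126082411, mm10), encodes an auxiliary subunit of AMPA receptors. It was at 15.9, 40.8, 31.5 and 34.2 CPM in controls and 91.4, 44.8, 108 and 68.4 CPM in CUS mice, a log2 difference of 1.27 ± 0.31 (SE, edgeR adjusted p = 0.174). Both were sparse, with 100 and 131 UMIs over all members.

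**Figure D3:**
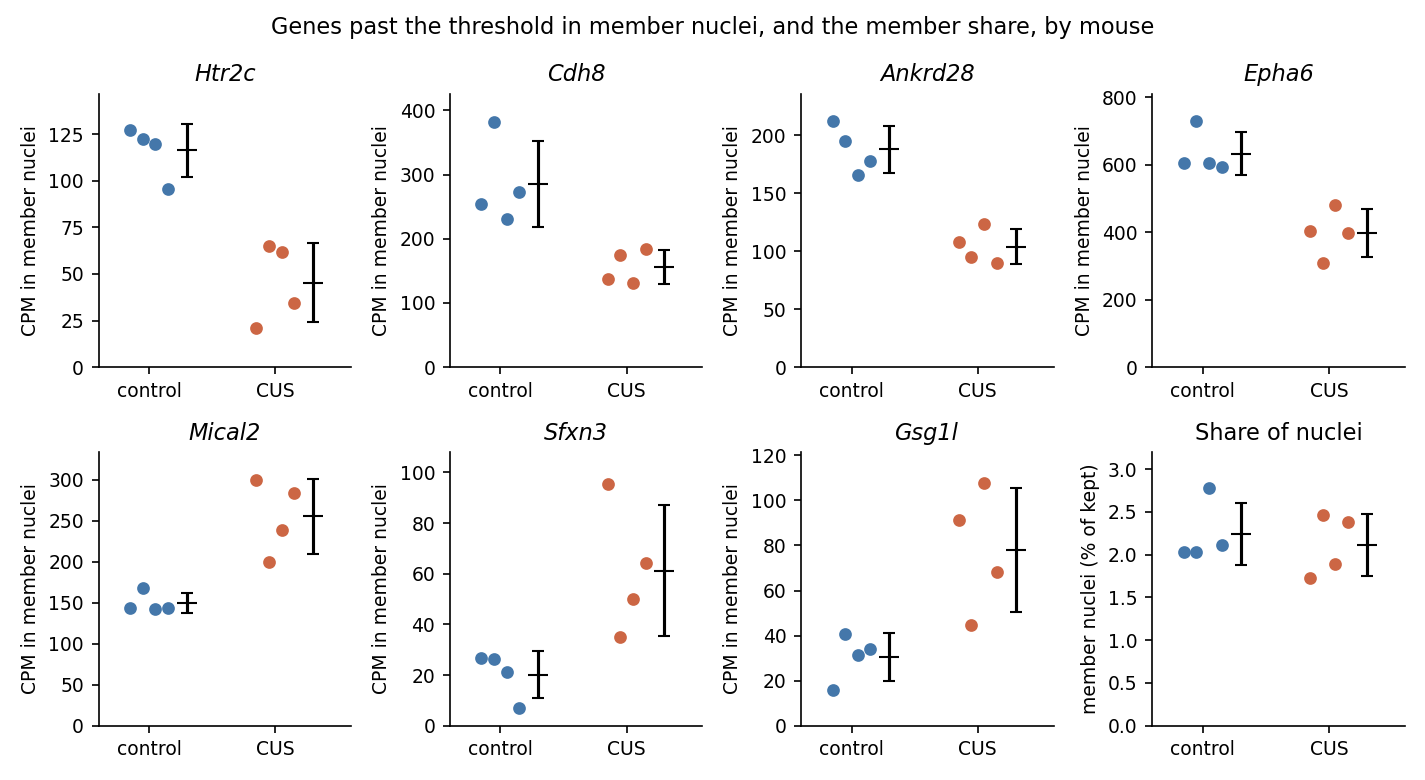
CPM in member nuclei (TMM-scaled) for the 7 genes past the threshold, and the member share in percent of kept nuclei, one point per mouse (blue control, orange CUS). Bars give mean ± SD of 4 mice. The groups do not meet for any of the 7 genes and overlap for the share.

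The 7 genes were carried by different members. Htr2c was nearly missing from members of cluster 5, with 7 UMIs in control and 4 in CUS mice. It lay in cluster 24 (340 CPM in control and 168 CPM in CUS members, summed over mice), in cluster 6 (193 and 94.7 CPM), in cluster 14 (102 and 6.25 CPM) and in the 15 members of cluster 22, led by Tshz2 (1276 and 533 CPM). Its drop in value was thus seen in several clusters and hardly measurable in the one with most members. Cluster 24 held 8.83% of members in control and 9.17% in CUS mice, with single mice from 2.94 to 15.7%. Cluster 14 held 7.99 and 6.70%, cluster 6 held 6.49 and 6.59%, and cluster 22 held 9 control and 6 CUS members. Markers of several neuron types were also lower in value in these members, none past the threshold. The near-projecting marker Tshz2, which leads cluster 22, was at -0.95 (edgeR adjusted p = 0.641), the layer 6 marker Foxp2 at -0.81 (edgeR adjusted p = 0.683) and the layer 5 marker Etv1 at -0.78 (edgeR adjusted p = 0.694). Near-projecting markers were negative in 2 of 2 tested, with a median of -0.60, and layer 6 markers in 4 of 5, with a median of -0.18. Layer 5 markers were positive in 5 of 7 and claustrum and layer 6b markers in 2 of 3, with medians of 0.14 and 0.52. The part of cluster shares and of these markers in the Htr2c difference was not tested.

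Cdh8 was lower in CUS members of cluster 5 (124 and 66.1 CPM), cluster 24 (602 and 336 CPM), cluster 14 (596 and 325 CPM) and cluster 6 (265 and 116 CPM). It was higher in value in cluster 2 (24.9 and 56.8 CPM) and cluster 1 (36.7 and 225 CPM), on 1 to 4 UMIs a group. In CPM, Epha6 differed most in cluster 6, at 1669 and 863 CPM, and was at 326 and 284 CPM in cluster 5. In ratio it dropped further in cluster 22 (765 and 76.1 CPM, on 18 and 1 UMIs). The same held for the smaller clusters pooled (924 and 347 CPM). With few UMIs, Epha6 was higher in value in CUS members of cluster 24 (23.7 and 29.2 CPM) and cluster 2 (24.9 and 171 CPM). Ankrd28 was at 205 and 99.2 CPM in cluster 5, Mical2 at 139 and 265 CPM, Sfxn3 at 18.2 and 55.7 CPM and Gsg1l at 21.5 and 60.9 CPM. Ankrd28 was also lower in CUS members of clusters 14, 6, 15 and 2. It was higher in value in cluster 24 (135 and 161 CPM) and cluster 1 (183 and 281 CPM). Gsg1l was also higher in clusters 24, 14, 6, 15 and 2. It was lower in value in cluster 1 (110 and 56.2 CPM) and in the smaller clusters pooled (22.2 and 7.38 CPM). These sums over mice have no test of their own.

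Members in and outside cluster 5 were also fitted apart, a choice made after the data were seen. Among members of cluster 5, 0 of 5899 genes passed by edgeR's quasi-likelihood test, and 339 had an unadjusted p under 0.05. There Ankrd28 was at a log2 difference of -1.03, Mical2 at 0.88 and Cdh8 at -0.96, and Htr2c had too few UMIs to be tested. Among members outside cluster 5, 3 of 7129 genes passed, all lower in CUS mice, namely Htr2c (-1.49, edgeR adjusted p = 0.0224), Epha6 (-0.88, edgeR adjusted p = 0.0956) and Nxph1. Over all 2054 nuclei of cluster 5, Sgsm1 and Galnt9 were higher in CUS mice. Htr2c had too few UMIs to be tested there, and none of the other 6 passed.

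Genes just short of the threshold included Ndst4, a heparan sulphate enzyme, at a log2 difference of -1.55 ± 0.40 (SE, edgeR adjusted p = 0.237). Its mice were at 74.3, 281, 223 and 157 CPM in control and 33.3, 99.6, 173 and 0 CPM in CUS, and the groups overlapped. It leaned on single mice, at -0.94 without CUS 4 and -2.57 without CUS 3, where it passed, and it passed in 8 of 18 alternatives. Cluster 6, which Ndst4 leads, held 1.72% of the members of CUS 4 and 14.7% of those of CUS 3, and the part of this share in the Ndst4 values was not tested. Galntl6 was at -0.87, Camkk1, a kinase upstream of calcium-dependent kinases, at 1.27 (edgeR adjusted p = 0.237 for both), and the host gene of a miR-124 precursor, Mir124a-1hg, at 0.68 (edgeR adjusted p = 0.292). They passed in 9 of 19, 7 of 20 and 4 of 21 alternatives, the set term among them.

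Lists of genes related to the markers gave 1 call in all, where 0.106% of all genes tested were called. Of 11 classical cadherins tested, Cdh8 passed and all 11 were negative in sign, where 50.9% of all genes tested were positive, and the median log2 difference was -0.32, beside 0.0064 over all genes. Cdh12 was at -0.45 (edgeR adjusted p = 0.645), and from -0.59 to -0.29 leaving out a mouse. The same 11 were also negative in other excitatory nuclei of these mice, with a median of -0.14, and in bulk mPFC 6 of 12 were negative, with Cdh20 the one called, lower, as were 2.13% of all genes tested there. None of 9 polypeptide GalNAc-transferases, 14 heparan sulphate enzymes, 6 collagen chains, 8 semaphorin and receptor genes or 15 muscarinic signalling genes passed. Their medians were -0.00065, -0.15, 0.19, 0.0016 and -0.16. The members with the largest differences were Galntl6 and Galnt9 (0.66), Ndst4 and Ext2 (0.39), Col11a1 (0.62) and Col4a1 (0.54), Nrp1 (0.53) and Plxnc1 (-0.28), and Kcnj3 (-0.59) and Rgs7 (-0.37), with edgeR adjusted p from 0.237 to 0.910. Beside Ndst4 and Galntl6, Kcnj3 passed in 3 of 21 alternatives, Col11a1 in 1 of 18 and Galnt9 in 1 of 20. Leaving out a mouse moved Col11a1 from 0.19 to 0.96, Col4a1 from 0.30 to 0.83, Ext2 from 0.25 to 0.52 and Rgs7 from -0.46 to -0.22.

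Genes of neuronal activity and of stress hormones gave no call in members either, where 0.106% of all genes tested were called. Of the 40 activity-regulated genes of the list, 18 could be tested. Of these 14 were positive with a median of 0.15, where 50.9% of all genes tested were positive. Egr1 was at 0.62 (edgeR adjusted p = 0.641), Nr4a1 at 0.75 (edgeR adjusted p = 0.584) and Vgf at 0.38 (edgeR adjusted p = 0.866). In other excitatory nuclei of the same mice 14 of 18 were positive as well, with a median of 0.11. In bulk mPFC all 40 genes of the list were tested, so the counts cover unlike sets of genes. There 29 of 40 were negative, with a median of -0.20, where 51.3% of all genes tested were positive. There 11 passed as lower, Fos, Fosl2, Nr4a2, Nr4a3 and Dusp1 among them, and 2 as higher, Sorcs3 and Vgf, beside 2.13% and 1.16% of all genes tested. Of 4 glucocorticoid-induced genes tested, 3 were negative, with Mt1 at -0.24 and Sgk1 at -0.16, and the glucocorticoid receptor Nr3c1 was at -0.21 (edgeR adjusted p = 0.881). Leaving out a mouse moved Mt1 from -0.44 to -0.041, Nr3c1 from -0.29 to -0.017 and Vgf from 0.16 to 0.61. Yy1, a zinc-finger transcription factor, was at -0.15 (edgeR adjusted p = 0.945), and its value was positive without control 1. Of 37 excitatory synapse genes tested, 20 were negative, and the 2 largest differences were positive, Cacng2 at 0.61 and Dlg4 at 0.48. In other excitatory nuclei 24 of 36 were negative, with a median of -0.11. In bulk mPFC 30 of 40 were positive, with 6 called higher, Gria1, Grin2a and Grin2b among them, and Homer1 called lower. In members all 8 excitatory markers were positive, Slc17a7 at 0.31 and Neurod2 at 0.29, none past the threshold. There 16 of 22 ribosomal protein genes were positive, Rps15 at 0.87 and Rpl6 at 0.76, none past the threshold. In other excitatory nuclei 21 of 22 ribosomal protein genes were positive, with a median of 0.25 beside 0.16 in members, and 6 of 7 excitatory markers. In bulk mPFC 22 of 40 ribosomal protein genes and 8 of 8 excitatory markers were positive. In members, leaving out a mouse moved Slc17a7 from 0.19 to 0.38, Neurod2 from 0.17 to 0.40 and Dlg4 from 0.28 to 0.63.

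The genes that led the member list were tested as well, since stress labels had no part in choosing them. None of the 15 passed, beside 0.106% of all genes tested. Of the 15, 10 were positive, beside 50.9% of all genes tested, and the median was 0.23. Blnk was at 0.77 (edgeR adjusted p = 0.671) and Igsf21, a synaptic adhesion protein, at 0.49 (edgeR adjusted p = 0.694). Zfp804b was at -0.51 (edgeR adjusted p = 0.538) and Zfp804a at -0.50 (edgeR adjusted p = 0.577). Zfp804a was at -0.76 without CUS 2, where it passed (edgeR adjusted p = 0.0470). Oprk1 was at 0.07 and Sulf1 at -0.03.

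Whether stress acted differently on members than on other excitatory nuclei was tested as an interaction with mouse as a block. By edgeR's quasi-likelihood test 0 of 6602 genes passed at an adjusted p under 0.2, and 274 (4.15%) were under 0.05 before adjustment. With the likelihood ratio test 4 genes passed, Htr2c, Pdzrn3, Uchl5 and Npy, all more negative in members. Htr2c had a difference of effects of -1.10 ± 0.26 (SE, edgeR adjusted p = 0.378), from -1.44 in members and -0.40 in other excitatory nuclei. Npy, a neuropeptide of inhibitory neurons, had a difference of -1.75 at the same adjusted p, and was at 212 CPM in members of control 4 and 24.0 to 53.0 CPM in those of the other controls.

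Mical2 was at 0.64 in other excitatory nuclei (edgeR adjusted p = 0.29), with a difference of effects of 0.10. In those nuclei 0 of 6602 genes passed by the quasi-likelihood test, and 639 (9.68%) had an unadjusted p under 0.05. With the mitochondrial set as a term 52 passed, Mical2 (edgeR adjusted p = 0.0452) and Sfxn3 (edgeR adjusted p = 0.190) among them. The difference of effects still gave 0 with that term. The 7 genes had the same sign there as in members, with Cdh8 at -0.34, Ankrd28 at -0.30, Epha6 at -0.29, Sfxn3 at 0.56 and Gsg1l at 0.15. Both sets of nuclei came from the same 8 mice, so the shared sign is no second measurement.

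The bulk mPFC libraries came from other mice, which per the methods had gone through behavioural tests, and gave a separate reading. Over 18394 genes tested, 606 (3.29%) passed edgeR's quasi-likelihood test at an adjusted p under 0.05, 214 higher (1.16%) and 392 lower (2.13%) in CUS mice. Without TMM factors 203 were higher and 619 lower. In bulk tissue fewer nuclei of a type and less RNA per nucleus cannot be told apart. Oligodendrocyte markers were negative for 8 of 8 genes, with St18 called, where 51.3% of all genes tested were positive. Astrocyte markers were negative for 7 of 7, with Aqp4, Gja1 and Slc4a4 called lower, and excitatory markers positive for 8 of 8, with Neurod6 called higher. The 10 striatal markers had a median of -0.83, but the one that passed, Pde10a, was higher (0.61, edgeR adjusted p = 0.0161). The part of cell makeup in the bulk values was not tested.

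None of the 6 marker genes passed in bulk, although Galnt14 passed in 3 of 14 alternatives and Col6a1 and Hs3st2 in 1 of 14 each. Galnt14 was at 79.6, 93.1, 122 and 91.5 CPM in control 1 to 4 and 117, 120, 113, 123 and 128 CPM in CUS 1 to 5. Control 3 lay within the CUS mice and the other controls below them, and the log2 difference was 0.32 ± 0.10 (SE, edgeR adjusted p = 0.0908), or 0.44 without control 3, where it passed. Col6a1 was at -0.29 (edgeR adjusted p = 0.380), Hs3st2 at 0.14, Chrm2 at -0.03, Sema3e at -0.08 and Cdh9 at -0.02. The last 3 changed sign when single mice were left out.

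Of the leading genes, 14 were tested in bulk and 1 passed, beside 3.29% of all genes tested. Antxr1, a collagen-binding membrane receptor on chromosome 6 (87133853 to 87335821, mm10), was at 58.4, 59.8, 58.8 and 61.3 CPM in control and 46.1, 42.6, 47.3, 40.0 and 48.9 CPM in CUS mice. The groups were well apart, with a log2 difference of -0.41 ± 0.06 (SE, edgeR adjusted p = 0.00952), and it passed in all 14 alternatives run. In members Antxr1 was at 0.06 (edgeR adjusted p = 0.972).

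Of the 7 genes, Htr2c and Mical2 passed in bulk in the direction seen in members, but not under every setting. In bulk 3.29% of all genes tested passed. Bulk tissue holds nuclei of all types, and members were 2.24 and 2.11% of kept neocortical nuclei in control and CUS mice. The bulk values are thus no measurement of members. In other excitatory nuclei Htr2c was at -0.40 and Mical2 at 0.64. Htr2c passed in 9 of 14 alternatives (edgeR adjusted p up to 0.0792) and Mical2 in 6 of 14 (edgeR adjusted p up to 0.130). Htr2c was at 46.7, 54.7, 39.5 and 76.5 CPM in control and 30.2, 35.5, 34.8, 33.2 and 34.8 CPM in CUS mice, a log2 difference of -0.69 ± 0.15 (SE, edgeR adjusted p = 0.0271). Mical2 was at 371, 436, 610 and 410 CPM in control and 775, 545, 671, 667 and 646 CPM in CUS mice, a log2 difference of 0.53 ± 0.13 (SE, edgeR adjusted p = 0.0476). Control 3 overlapped the CUS mice for Mical2, while for Htr2c the groups did not meet, as for 8.76% of all genes tested.

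The other 5 did not pass in bulk, although Epha6 passed in 6 of 14 alternatives and Gsg1l in 4. Gsg1l was at 0.51 (edgeR adjusted p = 0.0751), Epha6 at -0.42 (edgeR adjusted p = 0.0659), Ankrd28 at -0.13, Sfxn3 at 0.14 and Cdh8 at 0.12, the last with the sign opposite to that in members. Ndst4 passed at -3.59 (edgeR adjusted p = 0.00968), from 9.33, 74.7, 18.6 and 102 CPM in control to 2.98 to 6.51 CPM in CUS mice. Nr4a2, which leads cluster 24, passed at -1.76 (edgeR adjusted p = 0.00107), and was at 0.56 in members (edgeR adjusted p = 0.699). In members it passed as higher when CUS 3 was left out. Cluster 24 held 2.94% of the members of CUS 3 and 8.62 to 15.7% of those of the other CUS mice. The part of this share in the Nr4a2 values was not tested.

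**Figure D4:**
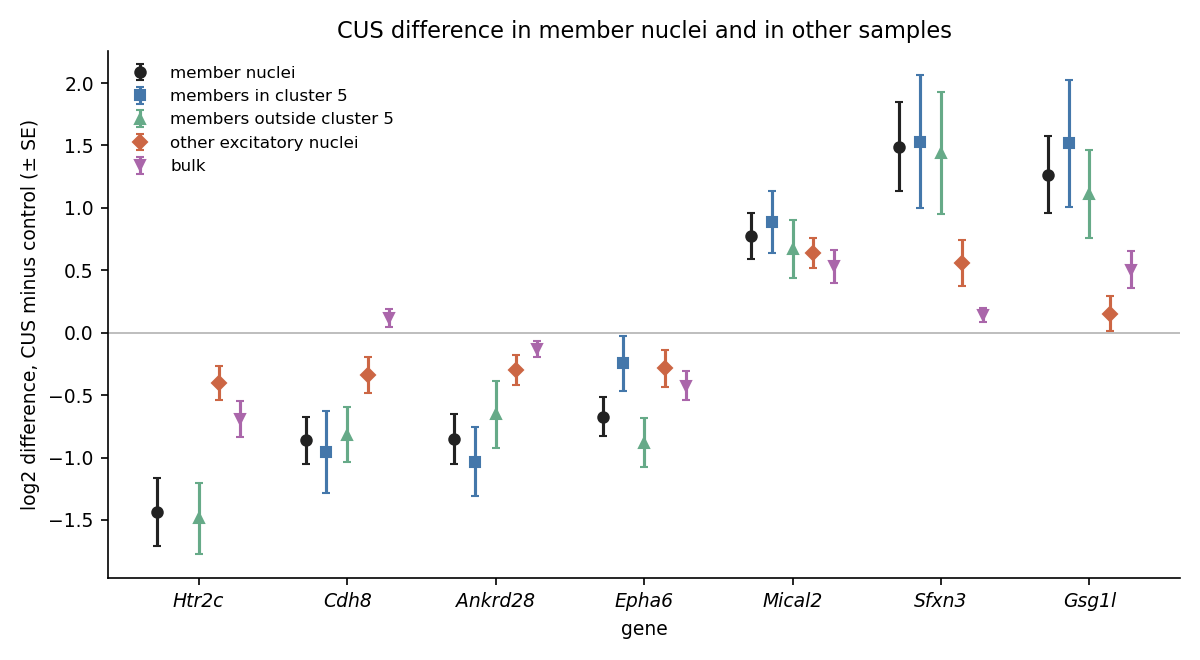
Log2 difference, CUS minus control, with its SE for the 7 genes past the threshold in member nuclei, in all members, members in and outside cluster 5, other excitatory nuclei and bulk mPFC. Htr2c has no point for members in cluster 5, where it had too few UMIs. Cdh8 is negative in every set of nuclei and at 0.12 in bulk.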

How the data were processed

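The authors deposited UMI counts per gene and barcode for each mouse, 5000 barcodes a library, aligned to mm10 with intronic and exonic reads counted and UMIs merged. They also deposited bulk counts of uniquely mapped reads per gene (STAR, in-house counting). No batch label was given, and 2 sets of mice by mitochondrial share, split at the widest gap after the data were seen, served as an alternative term. Nuclei with 600 to 5000 genes and under 5% mitochondrial UMIs were kept. The methods removed nuclei with a doublet score over 0.2 from the tool Scrublet. Here doublet scores were rebuilt per library and may differ from those of the authors. Scores over 0.2 were an alternative filter, not the main one, so the main tests depart from the study in this step. Clusters used 2000 variable genes, 50 components, 20 neighbours and Leiden resolution 1 (leidenalg 0.10.2, Python 3.11.15).

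Member UMIs were summed per mouse and tested with edgeR 4.0.16 in R 4.3.3 (TMM, quasi-likelihood, Benjamini-Hochberg adjustment). Genes needed summed UMIs above 10% of the member number, the threshold was 0.2, and the 13 rule genes were left out. Bulk counts used filterByExpr and 0.05. DESeq2 1.42.0 was an alternative. Shares were compared by exact permutation over mice (scipy 1.17.1). The test was tried on simulated counts. The biological coefficient of variation was 0.142 in members and 0.101 in bulk. The tests set the difference between groups against the spread between these mice. Labels name samples and not separate litters. Per the methods mice were group housed, with controls in a separate room, so cage and room cannot be told apart from stress. The p-values do not cover this.

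Named genes were the markers, the 15 leading and 8 lowest genes, those past the threshold, the 5 with the smallest p in each direction, list genes with the largest differences (for cell type markers, summed levels and bulk calls), and Yy1, Nr3c1, Mical2, Vgf and Egr1. Sgsm1, Nxph1, Pdzrn3, Uchl5, Nr4a2 and the genes named as list calls in bulk were named after their values were seen. Members and lists were chosen with earlier results of these data known.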

Additional observations from a re-analysis of the deposited data

Results flagged for a closer look

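Of 128 groups of 4 or 5 mice examined, 8 held a mouse far from the others by Dixon's criterion, and chance gives about 1 in 20. The member share was 2.78% in control 3, against 2.03 to 2.12% in the other controls, and the difference between groups was positive without that mouse. Control 2 stood above the other controls for Epha6 in members (730 CPM against 594 to 605) and for Mical2 (168 against 143). Npy was at 212 CPM in members of control 4 against 24.0 to 53.0 CPM. Zfp804b was at 579 CPM in members of control 3 against 915 to 944 CPM. Among CUS mice, CUS 2 was high for Zfp804a (652 CPM against 333 to 380) and for the rule gene Chrm2 (358 CPM against 161 to 180), and CUS 4 for Galnt9 (115 CPM against 84.6 to 87.3). No cause was tested.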

How the results depend on the processing

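The 7 genes called in members kept their direction in every alternative that tested them, and Htr2c passed in 15 of 18. Where mice were left out the direction was fixed beforehand, since the groups did not overlap for any of the 7. The number of genes called in members was 18 with the likelihood ratio test, 13 with DESeq2, 18 with no filter on low counts, 12 with the replicate block, 1 with the doublet score filter, 2 with at least 4 markers, 11 with at least 1000 genes, and 0 to 19 leaving out a mouse. With alternatives added after seeing the data it was 0 in members in cluster 5, 3 outside it, 2 over all nuclei of cluster 5, and 21 with the mitochondrial set as a term (34 with the likelihood ratio test, the 7 among both). The difference of effects gave 4 genes with the likelihood ratio test and 0 to 6 leaving out a mouse (6 without control 4, 5 without CUS 3, 3 without control 1 or CUS 2, 2 without CUS 4, 1 without control 2). Bulk gave 1330 genes with the likelihood ratio test, 1413 with DESeq2, 233 with the replicate block and 133 (without control 2) to 1508 (without control 3) leaving out a mouse. The split of bulk calls without TMM factors was 203 higher and 619 lower, beside 214 and 392. The share difference turned to 0.279 points with at least 1000 genes and, added later, 0.868 for cluster 5 as a share, and ran from -0.243 to 0.0546 leaving out a mouse. Among the genes followed through the alternatives, some log2 differences reversed, none past a threshold. Yy1 was at 0.034 with 4 markers and 0.18 outside cluster 5 (-0.29 to 0.19 leaving out a mouse). Cacng2 was at -0.19 and Sgk1 at 0.18 outside cluster 5 (Sgk1 -0.30 to 0.0068 leaving out a mouse). Rpl6 was at -0.057 in it, and Galntl6 at 0.052, Nrp1 at -0.054 and Mt1 at 0.72 over all its nuclei. Other named genes were not followed in this way, and some also changed sign. Among them were Oprk1 at -0.37 in members of cluster 5, Sulf1 at 0.36 in members outside it and Etv1 at 0.032 over all its nuclei. In bulk, leaving out a mouse moved Chrm2 from -0.15 to 0.075, Sema3e from -0.19 to 0.013 and Cdh9 from -0.082 to 0.059. The cause was not tested. Same-numbered mice correlated at -0.052 to 0.078 in members, within the -0.150 to 0.114 of other pairs. In bulk the same-numbered pairs were all positive, 0.025 to 0.146, beside -0.154 to 0.087 in other pairs. The main tests did not take numbers as pairs, and whether the bulk numbers mark pairs was not tested. The replicate block, with 233 bulk genes, stands as the alternative. With the replicate block the exact test of the share gave p = 0.75. With 48 to 138 members a mouse, genes with fewer summed UMIs than 10% of the member number were not tested and no label gives a mouse's library batch.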
